A study of Mus musculus with 4 samples.

Results

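SMAD4 was bound at 710 regions in promoters, which were 6.48% of the 10964 regions bound in both replicates of mouse alveolar macrophages (AMs), which live in the airspaces of the lung and clear surfactant and inhaled particles. Overlapping peaks (1 bp or more) were merged, and an interval with a peak of each replicate counted as shared. It was placed in a promoter when its midpoint fell in a window from 1 kb before to 100 bp after the transcription start site (TSS) of a curated RefSeq transcript. The union of both peak lists had 23729 regions. The AMs came from the lungs of 9-wk-old wild-type C57BL/6J mice by bronchoalveolar lavage (BAL) and sorting. Binding was measured by HT-ChIPmentation, an immunoprecipitation of chromatin in which the Tn5 transposase adds sequencing adapters to the bead-bound DNA, in 2 SMAD4 libraries, with 2 input libraries that served as the control for peak calling and have no values of their own here. There was no other genotype or treatment. Nothing in the sources used here states that the replicates came from separate animals, so the spread between them may be technical, and with 2 replicates no test over samples was possible.

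SMAD4 is the common partner of the receptor-activated SMAD proteins, which carry signals of TGFβ and of bone morphogenetic proteins to the nucleus. SMAD proteins bind DNA weakly on their own, at the SMAD element GTCTGG or its variants, and usually do so beside other transcription factors (TFs) that define the cell type. TGFβ is a signal of the alveolar niche on which AMs depend, and a promoter is the stretch of DNA in front of a TSS where the transcription machinery assembles.

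The windows below were chosen, after their values were seen, to show the kinds of sequence found under the summits of promoter regions. Each has 201 bases around the mean of both summits and is written on the plus strand of mm10. Capitals mark matches, on either strand, to any of 19 consensus strings of known TFs, which are spelled out with their frequencies further on. The first were the strongest promoter regions, of which Pparg held no match and Hal only a CCAAT box, followed by windows with a CEBP string (TTRYRYAA).
Pparg, chr6:115421714-115421914: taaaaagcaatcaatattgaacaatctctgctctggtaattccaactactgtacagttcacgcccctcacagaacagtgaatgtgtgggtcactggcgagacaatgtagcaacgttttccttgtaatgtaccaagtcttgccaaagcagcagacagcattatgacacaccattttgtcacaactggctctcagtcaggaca
Hal, chr10:93488541-93488741: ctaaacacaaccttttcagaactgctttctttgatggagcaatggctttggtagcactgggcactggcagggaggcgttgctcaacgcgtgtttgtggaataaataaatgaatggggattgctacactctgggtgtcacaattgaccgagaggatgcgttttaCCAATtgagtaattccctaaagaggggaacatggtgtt
Sirpa, chr2:129592011-129592211: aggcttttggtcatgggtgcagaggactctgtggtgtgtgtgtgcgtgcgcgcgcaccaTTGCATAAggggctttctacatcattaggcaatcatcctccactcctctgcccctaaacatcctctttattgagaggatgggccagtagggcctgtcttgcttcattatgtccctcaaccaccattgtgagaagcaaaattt
Cdk4, chr10:127062613-127062813: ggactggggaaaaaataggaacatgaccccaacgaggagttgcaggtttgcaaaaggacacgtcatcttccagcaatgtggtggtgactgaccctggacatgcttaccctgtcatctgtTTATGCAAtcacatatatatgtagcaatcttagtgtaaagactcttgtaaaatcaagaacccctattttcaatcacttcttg
Clec4e, chr6:123289861-123290061: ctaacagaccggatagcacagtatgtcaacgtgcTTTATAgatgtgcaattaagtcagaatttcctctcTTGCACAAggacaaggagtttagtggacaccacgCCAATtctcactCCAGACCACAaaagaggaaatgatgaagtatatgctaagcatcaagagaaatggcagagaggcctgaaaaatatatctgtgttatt
The next windows hold the SMAD palindrome GTCTAGAC, in which the core GTCT of the SMAD element meets its reverse complement.
Smad6, chr9:64021940-64022140: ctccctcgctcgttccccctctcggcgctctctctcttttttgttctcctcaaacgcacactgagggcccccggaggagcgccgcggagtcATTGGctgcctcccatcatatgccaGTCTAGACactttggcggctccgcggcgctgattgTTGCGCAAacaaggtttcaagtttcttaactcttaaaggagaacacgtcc
Diaph2, chrX:129749471-129749671: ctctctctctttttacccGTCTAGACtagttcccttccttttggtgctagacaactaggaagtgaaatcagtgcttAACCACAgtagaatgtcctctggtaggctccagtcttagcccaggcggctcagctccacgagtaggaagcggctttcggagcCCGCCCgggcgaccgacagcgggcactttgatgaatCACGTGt
Dhps, chr8:85071106-85071306: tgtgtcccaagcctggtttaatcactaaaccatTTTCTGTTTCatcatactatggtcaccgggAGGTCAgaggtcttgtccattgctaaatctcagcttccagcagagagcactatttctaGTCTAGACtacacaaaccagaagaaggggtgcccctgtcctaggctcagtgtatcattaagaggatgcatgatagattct
The last windows show a promoter with PU.1 and STAT5 strings, a promoter rich in CpG with GC boxes and a GC-rich SMAD element, and a histone promoter with CCAAT boxes.
Csf2rb, chr15:78325860-78326060: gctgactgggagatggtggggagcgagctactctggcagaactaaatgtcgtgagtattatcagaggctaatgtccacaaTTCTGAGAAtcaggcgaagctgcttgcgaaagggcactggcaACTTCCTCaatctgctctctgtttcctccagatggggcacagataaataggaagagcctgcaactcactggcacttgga
Skil, chr3:31094942-31095142: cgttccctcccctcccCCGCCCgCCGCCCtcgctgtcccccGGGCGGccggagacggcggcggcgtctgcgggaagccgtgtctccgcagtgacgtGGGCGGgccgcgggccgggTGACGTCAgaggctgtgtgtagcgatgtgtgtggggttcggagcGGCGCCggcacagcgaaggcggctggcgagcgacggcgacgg
H2bc3, chr13:23746512-23746712: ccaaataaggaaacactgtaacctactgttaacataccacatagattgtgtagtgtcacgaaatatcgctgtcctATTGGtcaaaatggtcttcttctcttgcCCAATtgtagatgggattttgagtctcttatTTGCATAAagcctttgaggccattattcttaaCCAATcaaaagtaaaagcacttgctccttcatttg

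The promoter regions belonged to 734 genes, of which 653 were protein-coding, or 3.12% of the 20923 protein-coding genes with a curated transcript. At 634 regions the TSS was that of a coding transcript, and at the remaining 76 it was that of a noncoding transcript alone, a long noncoding RNA in 61. A primary transcript of a microRNA (miRNA) started at 6, the strongest of which was the region in front of Mir294 and Mir295, with folds of 12.02 in replicate 1 and 17.6 in replicate 2. There were 43 regions in the promoters of 2 genes, and at 38 of them the genes lay on opposite strands. There were 19 genes with 2 promoter regions each, namely Adgre1, Creb5, Dtx4, Emd, F10, Ffar2, Foxp1, Mgst1, Mrpl52, Nlrp3, Pafah2, Rab30, Skil, Slc15a3, Slc45a4, Ccny, 2010016I18Rik, B430010I23Rik and Gm11335. The strongest of these regions was at Slc15a3, a transporter of histidine and peptides in endosomes (14.9 in replicate 1 and 25.7 in replicate 2). At Skil the regions lay 395 bp and 45 bp upstream of the same TSS (midpoints at -395 and -45).

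The window that defines a promoter reaches further upstream of a TSS than downstream, so the side on which the regions lay was set in part by the rule. The median midpoint was at -240.5 bp (interquartile range -548.5 to -94), and 362 regions (51.0%) had their midpoint between -250 and 100 bp. The summits were placed alike in both libraries, with a median at -255 bp for replicate 1 and at -231 bp for replicate 2. Within a region the summits of the replicates were a median of 45 bp apart, compared with 49 bp in the other shared regions. The interval covered a TSS at 350 regions (49.3%). At the limits of the promoter window, the members just inside were those of Trim13 (-995 bp; fold enrichment 7.80 in replicate 1 and 14.0 in replicate 2) and Dhrs3 (86 bp; 7.15 and 18.0), and the regions just outside lay at Zfp609 (-1001 bp; 8.45 and 11.7) and Gas7 (105 bp; 8.77 and 16.7).

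**Figure D1:**
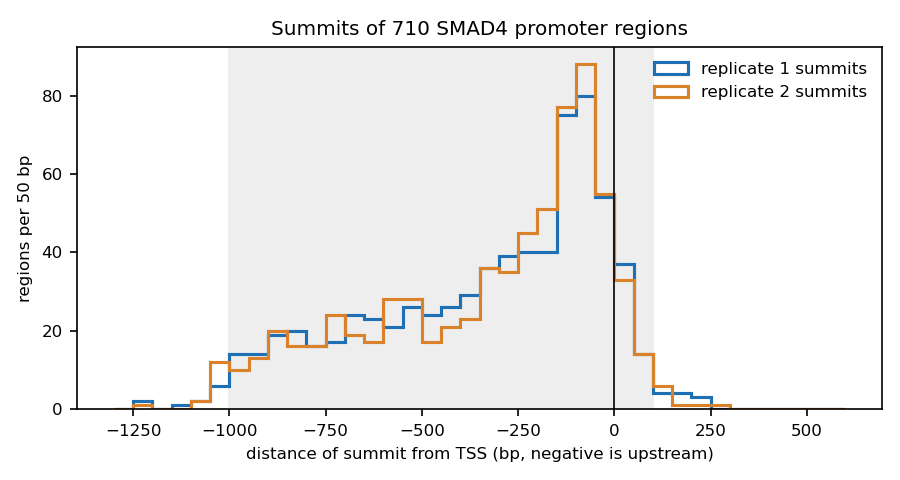
Distance of the SMAD4 summit from the TSS in bp (horizontal axis, negative values upstream) against the number of promoter regions per 50 bp (vertical axis), for replicate 1 (blue) and replicate 2 (orange). The shaded band is the window that the midpoint had to fall in, and the medians of both replicates lie at -255 and -231 bp.

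Fold enrichment was the authors' ratio of fragments stacked at a summit over the level given by the control, with 1 added to each. It had a median of 6.17 at promoter regions in replicate 1 (interquartile range 4.87 to 8.44, range 3.25 to 33.8). In replicate 2 the median was 9.48 (7.22 to 13.1, range 3.61 to 52.3). These values rested on medians of 18 and 20 fragments at the summit, and the weakest members had 9 and 7. The other 10254 shared regions had medians of 6.82 and 9.48, so that the ratio of promoter to other regions was 0.905 in replicate 1, while the medians were equal in replicate 2 (mean ratio 0.952 ± 0.0673, SD, n = 2). The replicates thus gave no common direction.

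High enrichment in both replicates was less frequent at promoters. Median folds were lower in replicate 1, so that a threshold met in both rests largely on that replicate. In both replicates 117 promoter regions had a fold of 10 or more (16.5%, exact 95% binomial interval 13.8 to 19.4), against 23.3% of all shared regions and 23.8% of the others (23.0 to 24.7). A fold of 20 or more in both was reached by 9 promoter regions (1.27%, 0.581 to 2.39) and by 4.02% of the others (3.65 to 4.42). Such intervals cover counting error only, since regions of the same libraries are not replicates, and shares that are given with intervals alone were not tested. The folds of the replicates ranked together with a Spearman rho of 0.710 across the 710 promoter regions and 0.787 across the others. All points share the same pair of libraries, and the low fragment numbers give the stepped values in the plot of folds.

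**Figure D2:**
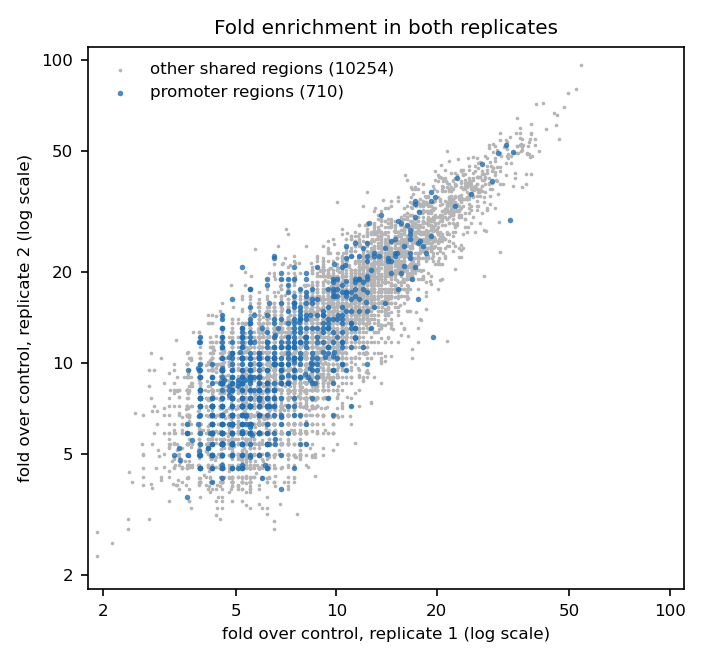
Fold enrichment of each shared region in replicate 1 (horizontal axis) and replicate 2 (vertical axis), both on log scales, for 710 promoter regions (blue) and 10254 other shared regions (grey). Promoter regions reach 33.8 in replicate 1 and 52.3 in replicate 2, while other regions reach 54.0 and 96.1.

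Of the promoter regions, the strongest by the smaller fold of both replicates was at Pparg, the gene of the nuclear receptor PPARγ that is needed for AM development and lipid handling. Its fold was 33.8 in replicate 1 (103 fragments) and 49.6 in replicate 2 (109 fragments), at chr6:115420553-115422497. This region did not lie at the first TSS of the gene but at a TSS 61115 bp further downstream, and 10 more shared regions had Pparg as the nearest gene, the strongest of which reached 28.9 and 37.5. The second was at Hal, which encodes histidine ammonia-lyase, an enzyme of histidine breakdown (32.2 and 52.3, chr10:93488212-93489021). Its summits lay at -124 and -130 bp, 6 bp apart.

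Snx27, the gene of a sorting nexin of endosomes, followed with folds of 30.5 and 49.2 and summits at -435 and -455 bp. Ccl6, which encodes a chemokine of macrophages and other myeloid cells, had 33.1 and 29.6 and was the only member of the first 20 whose fold was higher in replicate 1. Mbnl1, the gene of an RNA splicing factor, had 29.2 and 39.7, with summits at -657 and -667 bp.

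Sirpa, the gene of the receptor for the "do not eat me" signal CD47, had folds of 22.7 and 32.9, and Clec12a, an inhibitory lectin receptor of myeloid cells, had 19.8 and 35.2. Lims1 (25.3 and 36.1) encodes an adaptor of integrin adhesions, and Retreg1 (23.1 and 40.6) a receptor for the autophagy of endoplasmic reticulum. Both lay at an internal TSS, 28416 bp and 97404 bp downstream of the first. Cdk4, the cyclin-dependent kinase of the early cell cycle, had 19.2 and 34.3 at chr10:127062406-127063124. Others of the first 20 were at Fubp1, Cd302, Adcy10, Prdx6, Arrdc3 and the noncoding RNA genes Gm15133, Gm16548, Gm19705 and Ptgs2os2, with folds from 17.2 to 19.2 in replicate 1 and from 23.0 to 36.5 in replicate 2.

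**Figure D3:**
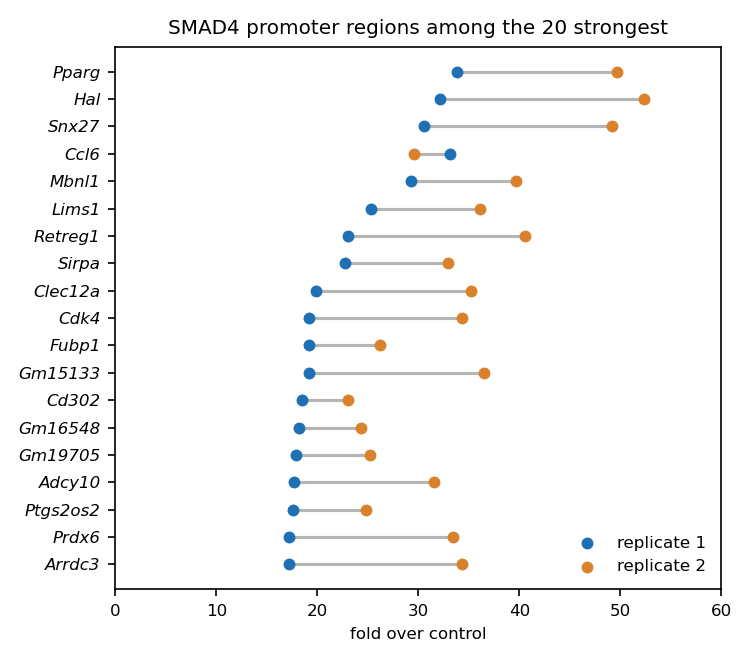
Fold enrichment (horizontal axis) of 19 of the 20 strongest promoter regions, each named by its gene, in replicate 1 (blue) and replicate 2 (orange), joined by a line. Pparg and Hal lead with at least 32.2 in both replicates, and Ccl6 alone is higher in replicate 1.

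Genes of the TGFβ pathway had promoter regions of moderate strength. Of 36 genes of ligands, receptors, SMADs and cofactors, 4 had one (11.1%, against 3.12% of all protein-coding genes), and all of them encode proteins that restrain the pathway. Smad7 and Smad6 encode the inhibitory SMADs, which block the receptors. Skil encodes the SMAD corepressor SnoN, and Tgif1 encodes another corepressor. No ligand, receptor or signalling SMAD of the list had a promoter region. Of the 36 genes, however, 19 had a promoter region or were the nearest gene to another shared region. For comparison, 19.1% of all protein-coding genes without a promoter region were the nearest gene to a shared region. At Smad7 the folds were 7.47 and 10.4 with a midpoint at 67 bp, and at Smad6 they were 5.52 and 13.5 at chr9:64021945-64022270. Skil had 6.50 and 10.4 at its stronger region and 5.85 and 7.67 at the other, and Tgif1 had 7.80 and 10.4. A list of 27 target genes of TGFβ and BMP held 4 genes (14.8%), among them Smad7 and Skil again and Zeb2.

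The SMAD palindrome GTCTAGAC was found in only 6 of the 710 promoter windows, among them those of the inhibitory SMAD genes Smad6 and Smad7 and of Diaph2, Dhps and Ccny. Along the plus strand it lay at 20 bp from the summit at Smad6, 25 bp at Dhps and -78 bp at Diaph2. It was within 50 bp of the summit in 3 of the 6 windows. Diaph2 (7.15 and 8.57) encodes a formin of the actin cytoskeleton, and Dhps (5.20 and 9.02) an enzyme of hypusine synthesis. The palindrome was in 0.845% of promoter windows (exact interval 0.311 to 1.83), 0.439% of the windows of other shared regions (0.320 to 0.587) and 0.166% of the promoters of all coding TSS. The difference between promoter and other regions did not pass the test described further on (two-sided Fisher's exact test, adjusted p = 0.227).

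Among 19 TFs of AMs, 4 had a promoter region (21.1%), Pparg, Runx1, Spi1 and Zeb2, and Pparg stood far above the others. Spi1, which encodes the macrophage factor PU.1, had folds of 5.52 (16 fragments) and 7.67 (16 fragments) at chr2:91096612-91096843, with the summits just downstream of a TSS that lies 14295 bp inside the gene. Runx1 had 6.17 and 7.67, and Zeb2, a repressor that keeps tissue identity in macrophages, had 4.77 and 8.37. All 3 were nearest to further regions, the strongest of which exceeded the promoter region in its smaller fold. With several further regions per gene, such an excess is likely even for regions of equal strength. Runx1 had 13 of them, up to 20.8 and 37.5, and Zeb2 had 5, up to 22.1 and 32.0. For Spi1 there were 4, up to 7.15 and 7.22, which in replicate 2 was below the 7.67 of the promoter region.

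Markers of AMs had a promoter region in 8 of 29 genes (27.6%). Mmp8, the gene of a neutrophil collagenase, was the strongest with 10.7 and 18.6 at chr9:7558157-7558715, over its TSS. Csf2rb, which encodes the common β chain of the GM-CSF receptor, had 5.67 and 8.12 at chr15:78325782-78326141, and its window held a PU.1 and a STAT5 string. STAT5 acts downstream of that receptor. Cidec (6.17 and 8.12), Chil3 (5.57 and 5.78), Ear2 (8.12 and 5.41), Plet1 (6.17 and 5.02), Lyz2 (4.55 and 6.32) and Atp6v0d2 (4.55 and 8.57) were weaker, and of the 8 only Mmp8 had a fold of 10 or more in both replicates. Ear2 belongs to a family of near-identical copies and Lyz2 has a close copy, so that reads may have been split between them. Of the 12 loci that the study displayed, 5 had a promoter region (41.7%), Mmp8, Casp4, Spi1, Zeb2 and Cd36. Those loci were picked on these libraries and are not independent of them. Casp4 had 7.47 and 14.0, and Cd36, with 4.55 and 6.32, had a region of 37.4 and 48.7 elsewhere in the gene, 1807 bp from a TSS.

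Innate immune receptors were the list with the highest share. Of 52 genes, 22 had a promoter region (42.3%), and 46 had a promoter region or were the nearest gene to another shared region. Of all protein-coding genes, 3.12% had a promoter region, and 19.1% of those without one were the nearest gene to a shared region. A fold of 10 or more in both replicates was reached by 5 of the 52, compared with 0.483% of all protein-coding genes. These were Sirpa, Lilrb4a (12.3 and 19.0), Clec4e (11.7 and 14.9), Cd300lf (11.0 and 14.9) and Trem1 (11.0 and 16.2). Lilrb4a and Cd300lf encode receptors of the immunoglobulin superfamily that can inhibit myeloid cells, Clec4e encodes the lectin Mincle, which senses mycobacterial glycolipid, and Trem1 encodes a receptor that amplifies inflammation.

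The other members of the list fell into families of sensors. The inflammasome genes Nlrp3 (8.45 and 8.57), Nlrc4 (8.12 and 15.8), Aim2 (3.90 and 4.51) and Casp4 each had a region, as did the endosomal receptors Tlr13 (7.47 and 11.3) and Tlr8 (6.17 and 19.0). Cd14, the coreceptor for lipopolysaccharide, had 6.82 and 9.48. Of the dectin-2 lectin cluster, Clec4a1, Clec4a2, Clec4d and Clec4n had regions besides Clec4e, with folds from 3.86 to 8.05 in replicate 1 and from 6.32 to 9.21 in replicate 2. Tyrobp, the gene of the adaptor DAP12, had 5.52 and 9.48, and its partner Trem2 had 3.90 (11 fragments) and 9.48 (20 fragments). Fcgr3, Cd33, Siglec1 and Pilrb1 completed the list, with folds from 4.55 to 6.50 in replicate 1 and from 6.32 to 8.57 in replicate 2.

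Genes of lysosomes (6 of 41, 14.6%), lipid handling (5 of 42, 11.9%) and cytokines or chemokines (5 of 39, 12.8%) were also above 3.12%. Lysosomal members were Cd68 (10.4 and 12.6), a glycoprotein typical of macrophages, the cathepsin genes Ctsc (10.4 and 11.7), Ctsl (8.45 and 10.8) and Ctsz (4.22 and 7.22), and the proton pump genes Atp6v1a (9.42 and 11.3) and Atp6v0d2. Lipid members were Olr1 (10.4 and 14.4), which encodes a receptor for oxidized lipoprotein, Acsl1 (5.85 and 10.8), Dgat1 (5.85 and 9.02), Cidec and Cd36. The cytokine members besides Ccl6 were Il1rn (9.75 and 16.7), which encodes the natural inhibitor of IL-1, Cxcl2 (9.25 and 10.5), Tnfsf13b (6.82 and 9.02) and Ccl3 (4.55 and 4.60).

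Immediate early genes had promoter regions at 5 of 34 genes (14.7%), Atf3 (7.80 and 14.4), Tnfaip3 (8.77 and 10.4), Maff (7.15 and 11.7), Nr4a1 (5.20 and 9.48) and Fosb (4.55 and 4.96). Tnfaip3 encodes a brake on NF-κB, and the other 4 encode TFs. Lower shares were seen in the interferon response (2 of 37, 5.41%, Stat3 with 7.47 and 15.3 and Gbp2 with 7.15 and 13.5) and in the cell cycle (3 of 43, 6.98%, Cdk4, Mcm3 and Bub1). Of the genes that all cells use, 2 of 85 ribosomal protein genes (2.35%) and 3 of 86 genes of the respiratory chain (3.49%) were near the background of 3.12%. Proteasome genes, at 2 of 39 (5.13%), had a share like that of the interferon response. Zinc finger genes were at 2.03% (8 of 395), and none of 1107 olfactory receptor genes had a promoter region.

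Canonical histone genes had a promoter region at 11 of 68 genes (16.2%), none of them with a fold of 10 or more in both replicates. They shared 8 regions with folds from 3.38 to 7.80 in replicate 1 and from 4.51 to 13.1 in replicate 2, and a minimum fold of 5 left 5 of the 11 genes. The strongest were between H2bc9 and H3c7 (7.80 and 10.4) and at H2bc3 (7.47 and 9.48). In 4 of the 8 windows a CEBP string was present, but in 3 of these, H2bc3, H2bc14 and the window of H2ac6 and H2bc4, it overlapped the octamer ATTTGCAT, the element of histone H2B promoters that POU factors bind. The octamer was in 13 of the 710 promoter windows (1.83%) and 1.36% of the others. Histone genes are near-identical copies, and their regions are uncertain where reads could not be placed.

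Of 26 markers of other lung and blood cells, 2 had a promoter region (7.69%). S100a8, a calcium-binding protein of neutrophils and monocytes, had 13.6 (41 fragments) and 30.7 (67 fragments), and Scgb1a1, the secretoglobin of club cells, had 7.47 and 11.3. Over all 19 lists, 91 of 2177 genes had a promoter region. The lists overlap, and their shares are descriptions that were not tested.

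**Figure D4:**
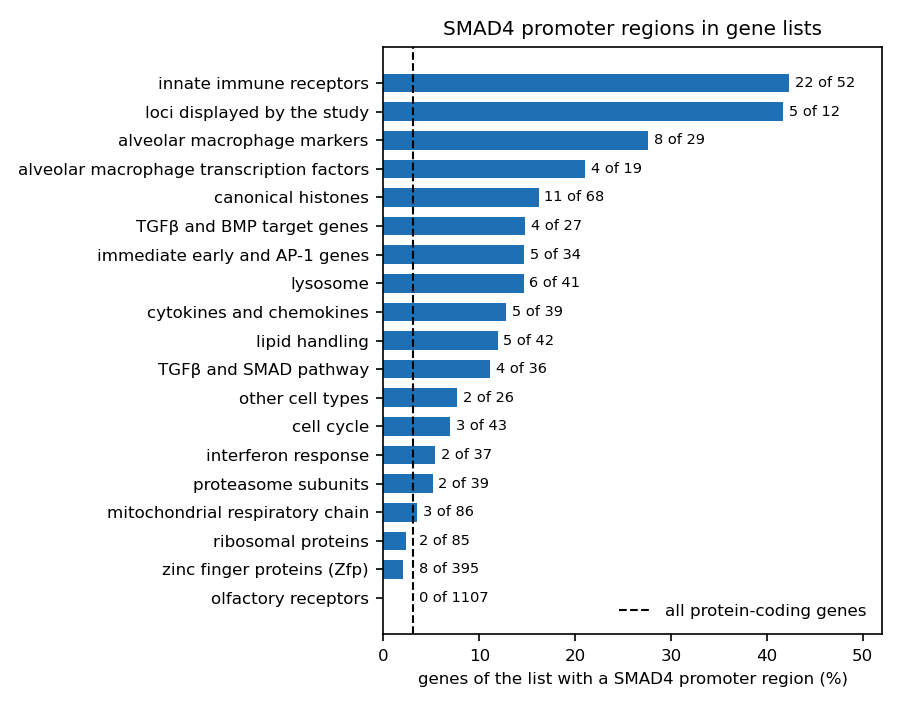
Share of the genes of each list that had a SMAD4 promoter region, in percent (horizontal axis), with the number of genes beside each bar. The dashed line is the share of all protein-coding genes, 3.12%, and innate immune receptors reach 42.3%.

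Genes with a promoter region were often near further SMAD4 regions. Of the 653 coding genes, 300 (45.9%, exact interval 42.1 to 49.9) were the nearest gene to at least 1 other shared region, against 19.1% of the 20270 coding genes without a promoter region. At 196 of the 300 (65.3%) the strongest further region exceeded the promoter region in its smaller fold. Where a gene has several further regions, the strongest of them is likely to exceed a single region. The share therefore depends on the number of further regions and does not show that they were stronger than promoter regions. Trib1 had 15 further regions, and Dhrs3 14. Among the 148 members at genes whose TSS lie in groups more than 500 bp apart, 82 (55.4%, 47.0 to 63.6) were at a group other than the first, close to the 56.4% of TSS groups of all such genes that are not the first.

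The base composition of promoter regions differed from that of the other regions. The median GC content of the 201-bp summit windows was 47.8%, compared with 43.3%, and the median ratio of observed to expected CpG dinucleotides was 0.404, compared with 0.211. A window was called CpG-rich when its GC content was at least 55% and this ratio at least 0.75. There were 72 such windows at promoter regions (10.1%, exact interval 8.02 to 12.6) and 0.156% at the others (0.0892 to 0.253). The TSS themselves were not richer in CpG than usual, as 24.5% of 620 coding TSS of members (21.2 to 28.1) and 24.7% of all 25922 coding TSS were CpG-rich over the 300 bp upstream.

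CpG-rich members lay closer to the TSS than the rest, with a median midpoint at -110 bp against -273 bp. Their median folds were 5.20 and 9.70, compared with 6.17 and 9.48, so that the order differed between the replicates. Of the 72, 5 had a fold of 10 or more in both replicates (6.94%, against 17.6% of CpG-poor members). Arrdc3, an arrestin family gene (17.2 and 34.3), and the shared promoter of Cdnf and Hspa14 (15.3 and 29.3) were the strongest. CpG-rich windows made up 4.52% of the 177 promoter regions with the largest smaller fold and 13.6% of the 177 with the smallest. Median folds were lower in replicate 1, so that a ranking by the smaller fold, or a threshold met in both, follows mainly that replicate. In replicate 2 the median fold of CpG-rich members was not lower.

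The 19 strings were compared between the summit windows of promoter regions and of all other shared regions by two-sided Fisher's exact tests. The p-values were adjusted over the 19 strings (Benjamini-Hochberg). Both groups are SMAD4 regions, so a difference can be one between promoters and other DNA in general. The test cannot show which TF sequences accompany SMAD4 at promoters. The windows come from the same libraries, so that the test compares windows and not replicates. More frequent at promoter regions were 6 strings (31.6% of those tested), and 1 was less frequent (5.26%).

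The GC box GGGCGG, the site of SP and KLF factors, was in 18.0% of promoter windows (15.3 to 21.1) and 3.03% of the others (2.71 to 3.38), with an adjusted p of 2.18e-50. This share was below the 33.2% of all coding promoters, measured in windows of the same length from 250 to 50 bp upstream of the TSS. Those windows had a median GC content of 54.7%, against 47.8% in the summit windows of promoter regions. Shares in all coding promoters are therefore not matched in position or base composition. The GC-rich SMAD element GGCGCC behaved like the GC box, with 4.23% at promoter regions, 0.790% at the others (Fisher's exact test, adjusted p = 8.68e-11) and 9.38% in all coding promoters. The ETS string CCGGAAGT was in 19 windows (2.68%) and 0.361% of the others (Fisher's exact test, adjusted p = 5.66e-09), among them Kxd1, Rae1 and Tcf3. The E-box CACGTG was in 6.48% and 3.45% (Fisher's exact test, adjusted p = 0.000704), and the NRF1 string CGCATGCG in 4 windows, those of Ogt, Slc33a1, Mapkap1 and the shared promoter of Cntrob and Trappc1, or 0.563% against 0.0293% (adjusted p = 0.00165). The CCAAT box CCAAT was in 30.8% and 26.7%, close to the threshold (Fisher's exact test, adjusted p = 0.0492; range over the alternatives 0.000316 to 1).

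Among windows with a GC content under 50%, the difference held for the GC box and the GC-rich SMAD element but not for ETS, E-box, NRF1 or CCAAT, and only the former 2 and RUNX kept their call under every alternative. Among windows with a GC content of 50% or more, the latter 4 kept their call (Fisher's exact test, adjusted p from 1.13e-06 for ETS to 0.0175 for NRF1). RUNX (TGTGGTY) was the string less frequent at promoter regions, at 11.4% (9.16 to 14.0) against 16.7% (15.9 to 17.4; Fisher's exact test, adjusted p = 0.000704). AP-1 (TGASTCA) was at 6.62% and 9.07% and missed the threshold (Fisher's exact test, adjusted p = 0.0520). In all coding promoters the shares were 1.78% for ETS, 4.86% for the E-box, 1.18% for NRF1 and 29.5% for the CCAAT box. There RUNX was at 5.69% and AP-1 at 3.30%. Those windows are not matched in position or base composition, and this comparison was not tested.

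No difference was detected for the CEBP and PU.1 strings. CEBP, bound by the C/EBP factors of myeloid cells, was in 157 promoter windows (22.1%, 19.1 to 25.3) and 23.7% of the others (22.9 to 24.6; Fisher's exact test, adjusted p = 0.458), while 3.52% of all coding promoters held it. PU.1 (GAGGAAGT) was in 7.89% of promoter windows (6.01 to 10.1), 8.01% of the others (7.49 to 8.55) and 1.58% of all coding promoters. CEBP strings lay a median of 38.5 bp from the summit, within 50 bp in 104 of the 157 windows. Of the 20 strongest promoter regions, with tied folds taken in order of chromosome name and position, 11 held a CEBP string and 3 a PU.1 string. Across the promoter regions, 51 of the 177 with the largest smaller fold held a CEBP string (28.8%), against 28 of the 177 with the smallest (15.8%). Other strings went the other way, such as RUNX (7.91% against 13.0%) and the GC box (11.9% against 18.6%). These shares were not tested, and the ranking follows mainly replicate 1.

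The SMAD element GTCTGG was in 11.7% of promoter windows (9.42 to 14.3) and 11.2% of the other windows (Fisher's exact test, adjusted p = 0.792). It was in 12.2% of all coding promoters, but those windows differ in position and GC content, and this comparison was not tested. STAT5 (TTCYNRGAA) was at 3.94% and 4.29%, RBPJ (GTGGGAA) at 5.21% and 4.07%, and the nuclear receptor element AGGTCA at 14.2% and 15.5%. The TATA box TATAAA was at 10.6% and 11.97%, the interferon element (ISRE, GAAA, any 2 bases, GAAA) at 3.24% and 3.35%, YY1 (AAGATGGC) at 1.83% and 1.06%, and CRE (TGACGTCA) at 0.986% and 0.361%. None of the latter 7 passed the test. R stands for A or G, Y for C or T, S for C or G and N for any base, both strands were searched, and several strings can overlap one another, as a GC box can with a GC-rich SMAD element. A match is a description of the sequence and not a measured site of binding.

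**Figure D5:**
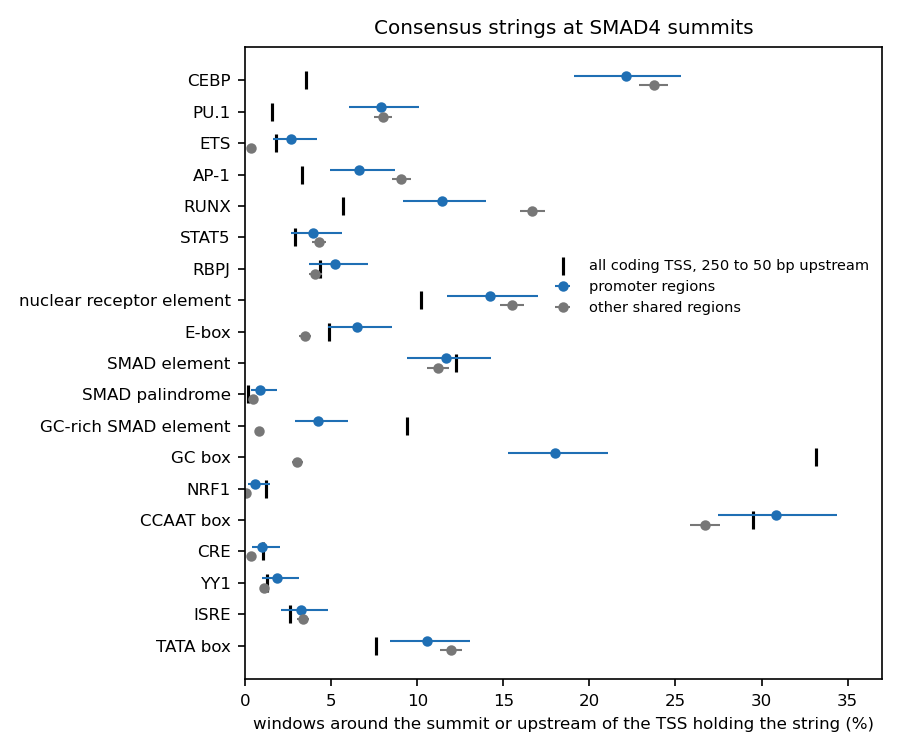
Share of 201-bp windows that hold each consensus string, in percent (horizontal axis), for promoter regions (blue) and other shared regions (grey), with exact 95% binomial intervals as bars. Black ticks give all coding TSS from 250 to 50 bp upstream. CEBP and PU.1 lie far to the right of the ticks in both kinds of region, and the GC box separates the 2 kinds, at 18.0% and 3.03%.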

How the data were processed

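SMAD4 binding was measured in 2 HT-ChIPmentation libraries of AMs, with 2 input libraries as controls. Per the study's methods and the labels, the authors trimmed reads (cutadapt), aligned them to mm10 (Bowtie2), kept non-duplicated reads of high mapping quality (SAMtools) and called peaks in each library with MACS3 at a q limit of 0.05 against input. The versions were not given in the sources used here. The deposited lists give, per peak, a fold ratio over the control level, −log10 p, −log10 q, a score and the summit position. The score deposited by the authors was not used. Read totals were not used here.

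Fragments at a summit were solved from the deposited fold ratio and −log10 p, with a largest error of 0.000540 in −log10 p. The background level was 2.08 fragments in replicate 1 and 1.22 in replicate 2, a relative depth of 1.69, taking the narrowest peaks (120 and 119 bp) as the fragment length. Folds are therefore not on the same scale in both replicates and were only set side by side. TSS were those of 45657 curated RefSeq transcripts (26089 genes) on GRCm38.p6, which shares the mm10 coordinates, and sequences were read from that genome. A member was named by its closest TSS within the promoter window. Coordinates are 1-based.

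Strings were compared by two-sided Fisher's exact tests, adjusted over 19 strings (Benjamini-Hochberg), and shares have exact (Clopper-Pearson) 95% intervals. The steps were tested on simulated data. The promoter regions, gene lists and strings were chosen with earlier results of these data known. Named were the 20 regions with the largest smaller fold, list genes with a promoter region (for lists with more than 10, the 4 strongest), the loci displayed by the study, genes with 2 promoter regions and regions nearest the window's limits. Further innate receptors, histones, miRNAs and string examples were named after their values were seen. Some regions, genes and sequences are not reported here. The software was scipy 1.17.1 and matplotlib 3.10.9, then pandas 2.3.3 on numpy 2.4.6, under Python 3.11.15.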

Additional observations from a re-analysis of the deposited data

How the results depend on the processing

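The number of promoter regions stayed within 1.5 times 710 under 10 of 12 alternatives. A window of 3 kb either side of a TSS gave 1927 regions, and the promoter peaks of a single list numbered from 859 (replicate 1 alone) to 1525 (replicate 2 alone). The protein-coding genes with a promoter region stayed between 459 and 832 under 4 alternatives, and a single list gave from 751 to 1369. Of the 710, 694 were also members when the mean summit replaced the midpoint. The strings more frequent at promoter regions numbered from 5 to 9, except 2 among windows with a GC content under 50%. The strings less frequent numbered 5 with windows of 200 bp each side, 3 among windows with a GC content of 50% or more, and 2 with the summit of either replicate alone. NRF1 had no match in the 430 promoter windows with a GC content under 50%, so that its difference turned to -0.0114 percentage points, and the other calls lost there were ETS, the E-box and the CCAAT box. The CCAAT box also lost its call with windows of 200 bp, with a minimum fold of 5 and against regions over 10 kb from a TSS, and AP-1 and CRE each passed under 4 of 7 alternatives (adjusted p from 0.000241 to 0.294 for AP-1 and from 0.000573 to 1 for CRE, two-sided Fisher's exact test). The SMAD palindrome, STAT5, YY1, the TATA box and the nuclear receptor element passed under 1 or 2. The cause of these changes was not tested. List counts over all lists were 103 with 1 kb either side of a TSS and 67 at a minimum fold of 5, which left no ribosomal protein gene. Median folds moved by less than the SD between the replicates, 2.33 at promoter regions and 1.87 at the others. This is a wide limit, because folds are not on the same scale in both replicates. Over the genome-wide background level, the medians of the other shared regions were 7.15 and 9.93, compared with 6.82 and 9.48. No paired analysis was possible because the labels give no shared replicate numbers. Few fragments per summit limit the ranking of weak regions.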

Other observations

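Promoter peaks of 1 replicate without a partner in the other differed between the lists. In replicate 1, 120 of 859 promoter peaks (14.0%) had none, with a median fold of 4.55 and 13 fragments at the summit. In replicate 2, 801 of 1525 (52.5%) had none, with a median fold of 5.41 and 11 fragments. Summit windows of these peaks were CpG-rich in 7.50% in replicate 1 (exact 95% interval 3.49 to 13.8) and 26.3% in replicate 2 (23.3 to 29.5), and their median GC content was 43.5% and 52.2%. Peaks with a partner were CpG-rich in 10.01% and 11.7%. Part of the CpG-rich promoters with a peak in replicate 2 is thus outside the 710 regions. Depth and the base composition of these peaks differ together between the replicates and cannot be told apart here. Whether library preparation also differed is not stated in the sources used here.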
